A study of Homo sapiens with 9 samples.

Results

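The enzymes that write, copy, erase and read cytosine methylation were followed as mRNA in 3 human kidney lines. The 9 genes were chosen by name: the methyltransferase genes DNMT1, DNMT3A and DNMT3B, the DNMT1 cofactor UHRF1, the dioxygenase genes TET1, TET2 and TET3, the glycosylase TDG and the methyl-CpG reader MBD2. All 9 were found by NCBI gene ID among the 28395 genes of the deposited count table, and all 9 passed the filter on low counts. HK2 is a proximal tubule line from normal kidney that was immortalised with papillomavirus oncogenes. 786-O is a clear cell renal cell carcinoma (ccRCC) line without functional VHL, and 786-M1A was recovered from lung metastases that 786-O cells formed in mice, so it shares its origin with 786-O. Each line was sequenced in 3 libraries and carried no treatment. The cells of every group were grown stably in Plasmax, a medium made after the nutrients of human serum.

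Each condition is 1 cell line. A difference from HK2 thus cannot be told apart from a difference between the individuals and the culture histories the lines came from. Between 786-O and 786-M1A, which share their origin, a difference cannot be told apart from one of passage through mice and culture history. The labels number the replicates, which the methods describe as replicate dishes, so p-values measure the spread between these libraries, which may be technical. Depth was 30212291 to 45362428 counts per library, the replicates of each line differed by more than sampling noise (chi-square per degree of freedom 3.06 to 8.49), and a count of 0 allowed at most 3 counts, or 0.0661 to 0.0993 counts per 1000000 (CPM) depending on the library. The largest chi-square values involved 786-M1A replicate 1 (8.49 and 7.84) and HK2 replicate 2 (6.19 and 8.14). The remaining pairs of those lines gave 3.06 for 786-M1A and 3.19 for HK2. Of the proximal tubule markers, LRP2, SLC22A6 and SLC22A8 were at 0 in all 9 libraries and PAX8 and GGT1 were present in all lines, so the label of HK2 rests on part of its marker list. ANPEP, a brush border peptidase, was at 1.74 CPM for HK2 against 112 for 786-O and 19.9 for 786-M1A, and CUBN, AQP1 and HNF4A had at most 32, 36 and 2 counts in any HK2 library. Of the 7 ccRCC markers in the table, CA9 had at most 3 counts in any library, EGLN3, VEGFA, CCND1 and VIM were higher in both cancer lines than in HK2, PLIN2 was lower in both (log2 fold change -0.53 and -0.30), and PAX8 missed the test in 786-O. Of the 11 markers of leukocytes, endothelium, fibroblasts and erythroid cells, PTPRC, CD3E and HBB were at 0 in every library. LYZ, PECAM1, VWF and CDH5 had at most 3 counts in any library and DCN at most 7. In HK2, 786-O and 786-M1A, CD68 was at 50.8, 26.9 and 36.1 CPM, and LUM at 22.5, 14.6 and 5.49 CPM. COL1A1 was at 53.5, 291 and 16.5 CPM in the same order. The summed level of the 11 was 121 to 133 CPM for HK2, 303 to 370 CPM for 786-O and 55.6 to 61.5 CPM for 786-M1A, most of it COL1A1 in 786-O.

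Methylation of cytosine in CpG dinucleotides is set by DNMT3A and DNMT3B on unmodified DNA and copied after replication by DNMT1, which UHRF1 brings to the half-methylated daughter strands. The TET enzymes oxidise methylated cytosine with iron and alpha-ketoglutarate, TDG cuts out the most oxidised forms for base excision repair, and MBD2 binds methylated CpG and recruits the NuRD corepressor. In the kidney these enzymes attract interest because the promoter of VHL itself is methylated in some ccRCC, and because the study of these lines asked whether promoter methylation of a urea cycle gene, ASS1, goes with its expression. The methylation measurements of the study were not analysed here, and every value below is mRNA.

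The promoters of the 4 genes whose levels changed most between lines are shown first, with every CpG in capitals, because CpG dinucleotides are the substrate of the enzymes that these genes encode. Each run is the 250 bases before a RefSeq start on GRCh38.p14, read 5′ to 3′ along the gene and free of annotated exons.
DNMT3A, outermost start, chr2:25342591-25342840, minus strand: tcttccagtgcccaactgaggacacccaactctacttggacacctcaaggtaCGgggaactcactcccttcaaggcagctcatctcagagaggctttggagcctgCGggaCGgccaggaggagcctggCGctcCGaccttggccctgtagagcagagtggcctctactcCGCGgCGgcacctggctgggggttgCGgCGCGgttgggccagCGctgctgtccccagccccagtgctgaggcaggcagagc
DNMT3A, internal start, chr2:25252316-25252565, minus strand: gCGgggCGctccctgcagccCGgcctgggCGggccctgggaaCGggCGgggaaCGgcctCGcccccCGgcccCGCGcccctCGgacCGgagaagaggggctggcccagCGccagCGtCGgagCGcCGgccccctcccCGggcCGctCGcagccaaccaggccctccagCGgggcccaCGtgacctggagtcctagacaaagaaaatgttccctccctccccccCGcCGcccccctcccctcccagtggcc
DNMT3B, internal start, chr20:32779602-32779851, plus strand: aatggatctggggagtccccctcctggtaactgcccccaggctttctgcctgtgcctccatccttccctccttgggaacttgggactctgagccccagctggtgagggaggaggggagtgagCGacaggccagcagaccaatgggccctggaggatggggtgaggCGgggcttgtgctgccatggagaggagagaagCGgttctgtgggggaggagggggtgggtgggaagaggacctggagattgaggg
TET1, outermost start, chr10:68560087-68560336, plus strand: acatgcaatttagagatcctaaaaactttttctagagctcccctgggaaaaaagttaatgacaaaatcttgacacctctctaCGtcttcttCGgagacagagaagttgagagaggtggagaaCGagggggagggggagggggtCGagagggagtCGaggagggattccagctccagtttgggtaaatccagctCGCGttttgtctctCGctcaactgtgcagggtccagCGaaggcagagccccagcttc
TET2, outermost start, chr4:105145625-105145874, plus strand: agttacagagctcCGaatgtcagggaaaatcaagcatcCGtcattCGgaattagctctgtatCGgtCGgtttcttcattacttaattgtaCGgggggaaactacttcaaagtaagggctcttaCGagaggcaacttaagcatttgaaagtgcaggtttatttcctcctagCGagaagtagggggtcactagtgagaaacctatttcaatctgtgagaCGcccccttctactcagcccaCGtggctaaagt

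The 250 bases before the outermost DNMT3A start held 12 CpG, and those before the internal start shown, from which shorter transcripts begin, held 25. Other DNMT3A starts, not shown, had 21, 33, 15 and 22, and the window with 33 is also free of annotated exons. Before the DNMT3B start that was read, which lies inside the gene, there were 3 CpG. There were 9 before the outermost TET1 start and 10 before the outermost TET2 start. Inner TET1 starts had 4 and 11, and the other TET2 start had 34, in a window whose 250 bases all lie in annotated exons. All 9 genes matched the RefSeq promoter table with 20 starts, of which 15, belonging to 7 genes, held more than 11 CpG, the median of 35116 promoters. The counts were made per gene, so transcripts from the different starts of DNMT3A cannot be separated, nor can reads that DNMT3A, TET1 and TDG share with their processed pseudogenes.

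UHRF1 alone among the 9 genes held a letter match to the E2F motif, the element through which replication genes are switched on in late G1. The letters searched on both strands were TTTCGCGC, TTTGGCGC and TTTCCCGC, which 2.32% of all promoters hold, and the match is in capitals in this window before a UHRF1 start.
UHRF1, chr19:4909894-4910143, plus strand: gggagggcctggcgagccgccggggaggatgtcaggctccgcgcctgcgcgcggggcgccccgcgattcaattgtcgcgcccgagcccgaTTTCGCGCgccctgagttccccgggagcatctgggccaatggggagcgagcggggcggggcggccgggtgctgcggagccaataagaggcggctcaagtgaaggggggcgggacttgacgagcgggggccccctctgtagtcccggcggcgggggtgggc
The core of the hypoxia response element, searched as ACGTG on both strands, was held by 18.5% of all promoters and by 6 of the 20 starts, belonging to DNMT3A, TET2, TET3 and TDG. Such matches are descriptions of letters and say nothing about binding in these cells.

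DNMT3A showed the widest difference among the 9 genes. Its level was 43.1, 43.2 and 41.2 CPM in the HK2 libraries, 4.38, 3.89 and 4.31 CPM in 786-O, and 3.37, 3.42 and 3.17 CPM in 786-M1A. The 6 cancer libraries thus lay far below all HK2 libraries, and the 786-M1A libraries lay below all 786-O libraries. DNMT3A mRNA was 10.1-fold lower in 786-O than in HK2 (log2 fold change -3.33, SE 0.06, edgeR adjusted p = 3.89e-21) and 12.8-fold lower in 786-M1A (-3.68, SE 0.07, adjusted p = 1.78e-21 by edgeR). Among the 12695 genes tested, this was the 580th most negative log2 fold change in 786-O and the 632nd in 786-M1A. Between the cancer lines the difference was small, 1.27-fold lower in 786-M1A (log2 fold change -0.34, SE 0.09, edgeR adjusted p = 0.00368), and rested on 147 to 195 counts per 786-O library and 120 to 131 per 786-M1A library. In bulk RNA, fewer cells with the transcript and less transcript per cell cannot be told apart, here and in every result below. DNMT3A lies at chr2:25227874-25342590 on the minus strand (NCBI gene 1788, GRCh38.p14).

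DNMT3B, the other de novo enzyme, was lower in the same 2 lines but by less. Its level was 62.5, 58.7 and 61.3 CPM in HK2, 32.7, 31.0 and 30.3 CPM in 786-O, and 26.7, 25.8 and 26.8 CPM in 786-M1A. No libraries of different lines overlapped, and the order was the same as for DNMT3A. The log2 fold change was -0.96 in 786-O (SE 0.05, edgeR adjusted p = 2.57e-14) and -1.20 in 786-M1A (SE 0.05, edgeR adjusted p = 6.56e-16), both against HK2. 786-M1A stood 1.18-fold below 786-O (log2 fold change -0.24, SE 0.05, edgeR adjusted p = 2.29e-04). DNMT3B lies at chr20:32762385-32809356 on the plus strand (NCBI gene 1789).

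DNMT1, the maintenance enzyme, went the other way. The HK2 libraries held 239, 224 and 238 CPM, the 786-O libraries 303, 303 and 279 CPM, and the 786-M1A libraries 317, 326 and 307 CPM. Both cancer lines stood above HK2 in every library. DNMT1 was 1.26-fold higher in 786-O (log2 fold change 0.34, SE 0.04, edgeR adjusted p = 1.43e-07) and 1.35-fold higher in 786-M1A (log2 fold change 0.44, SE 0.04, edgeR adjusted p = 2.13e-09). The difference between the cancer lines, 0.10 (SE 0.04, edgeR adjusted p = 0.0381), was lost without 786-O replicate 3 (0.06, edgeR adjusted p = 0.257), without 786-M1A replicate 2 (0.08, adjusted p = 0.153) and, barely, without 786-M1A replicate 1 (0.10, adjusted p = 0.05001). Adjusted p ranged from 0.0271 to 0.257 over all its alternatives. DNMT1 lies at chr19:10133346-10194953 on the minus strand (NCBI gene 1786) and shares 83 exon bases, 0.540% of its exons, with S1PR2 on the same strand, which had 37 to 205 counts.

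UHRF1, which leads DNMT1 to replicated DNA, was nearly level across the lines. Its libraries ran from 91.9 to 101 CPM in HK2, from 94.4 to 102 CPM in 786-O and from 99.2 to 108 CPM in 786-M1A, and the ranges of all 3 lines overlapped. The log2 fold change of 786-O against HK2 was 0.04 (95% interval -0.05 to 0.13, edgeR adjusted p = 0.414), so a difference beyond that interval was not seen. For 786-M1A it was 0.12 against HK2 (SE 0.05, edgeR adjusted p = 0.0165) and 0.08 against 786-O (95% interval -0.01 to 0.18, edgeR adjusted p = 0.126). The call against HK2 was lost without HK2 replicate 2 (0.08, edgeR adjusted p = 0.124), HK2 replicate 3 (0.11, 0.0670) or 786-M1A replicate 1 (0.10, 0.0527), and the difference between the cancer lines passed without 786-M1A replicate 3 (0.12, adjusted p = 0.0454). Over all alternatives the adjusted p ranged from 0.00189 to 0.175 against HK2 and from 0.0454 to 0.433 against 786-O. UHRF1 lies at chr19:4903080-4962154 on the plus strand (NCBI gene 29128).

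Levels of the replication genes stood beside those of DNMT1 and UHRF1 because both are made mainly in cycling cells. The summed level of 18 genes of DNA replication and proliferation was 4311 to 4375 CPM for HK2, 4231 to 4362 CPM for 786-O and 4385 to 4492 CPM for 786-M1A. Single genes differed more than the sum: PCNA, the sliding clamp that UHRF1 and DNMT1 work beside, changed by -0.99 and MKI67, a proliferation marker, by 1.03 on the log2 scale in 786-O against HK2 (edgeR adjusted p = 2.18e-15 and 2.61e-05). Their part in the levels of DNMT1 and UHRF1 was not tested.

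TET1, the scarcest of the 9 transcripts, was also lower in both cancer lines. It was at 4.77, 4.58 and 4.08 CPM in HK2, at 1.57, 1.72 and 2.05 CPM in 786-O, and at 1.42, 1.59 and 1.61 CPM in 786-M1A. Every cancer library was below every HK2 library, while the ranges of the 2 cancer lines overlapped. Counts per library were 149 to 189, 65 to 87 and 51 to 61, so TET1 is the member with the widest intervals. The log2 fold change was -1.32 in 786-O (SE 0.12, edgeR adjusted p = 1.86e-09) and -1.52 in 786-M1A (SE 0.13, edgeR adjusted p = 3.79e-10) against HK2. Between the cancer lines it was -0.21 (95% interval -0.52 to 0.11, edgeR adjusted p = 0.257), so a difference of that size could not be resolved. TET1 lies at chr10:68560337-68694487 on the plus strand (NCBI gene 80312).

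TET2 set 786-M1A apart from both other lines. Its level was 30.1, 26.6 and 31.1 CPM in HK2, 28.8, 31.7 and 31.2 CPM in 786-O, and 16.7, 20.5 and 17.7 CPM in 786-M1A. HK2 and 786-O overlapped, and all 786-M1A libraries lay below them. Its log2 fold change was 0.06 in 786-O (95% interval -0.08 to 0.21, edgeR adjusted p = 0.414) and -0.67 in 786-M1A (SE 0.07, edgeR adjusted p = 8.79e-08), both against HK2. The drop from 786-O to 786-M1A was 1.67-fold (log2 fold change -0.74, SE 0.07, edgeR adjusted p = 9.57e-08), the largest of the 9 genes in that comparison and the 860th most negative of the 12695 genes tested. TET2 lies at chr4:105145875-105279803 on the plus strand (NCBI gene 54790).

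TET3, the most abundant of the TET transcripts, was lower in both cancer lines. The libraries held 75.2, 66.9 and 78.7 CPM in HK2, 53.6, 55.5 and 49.7 CPM in 786-O, and 39.5, 49.96 and 46.4 CPM in 786-M1A. HK2 stood above both cancer lines, whose ranges overlapped. Against HK2, TET3 changed by -0.48 in 786-O (SE 0.08, edgeR adjusted p = 1.61e-04) and by -0.70 in 786-M1A (SE 0.08, edgeR adjusted p = 5.89e-06). Between the cancer lines it was -0.22 (SE 0.08, edgeR adjusted p = 0.0412), a call that did not outlast the removal of HK2 replicate 1 (edgeR adjusted p = 0.0519), 786-O replicate 1 or 2 (0.109 for each) or 786-M1A replicate 1 or 3 (0.0945 and 0.0813). Without 786-M1A replicate 1 the difference itself shrank to -0.13. The call was also lost with replicate number as a block in the fit (-0.23, edgeR adjusted p = 0.0905). Adjusted p ranged from 2.72e-05 to 0.109 over all its alternatives. TET3 lies at chr2:73983631-74135498 on the plus strand (NCBI gene 200424).

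TDG, which acts on the oxidised mark, and MBD2, which reads the mark, moved in opposite directions. TDG ran from 56.3 to 58.6 CPM in HK2, from 45.6 to 47.3 CPM in 786-O and from 37.7 to 40.8 CPM in 786-M1A. MBD2 ran from 61.4 to 68.9 CPM, from 77.9 to 82.2 CPM and from 94.4 to 97.7 CPM in the same order. Neither gene had libraries of different lines that overlapped, and both were graded, with 786-O between HK2 and 786-M1A. Against HK2, TDG fell by 0.30 in 786-O and by 0.55 in 786-M1A on the log2 scale (SE 0.04 for both, edgeR adjusted p = 1.53e-06 and 1.81e-10), and MBD2 rose by 0.28 and 0.54 (SE 0.05 and 0.04, edgeR adjusted p = 7.22e-06 and 3.36e-10). From 786-O to 786-M1A, TDG fell by 0.25 and MBD2 rose by 0.26 on the log2 scale (SE 0.04 for both, edgeR adjusted p = 7.41e-05 and 4.16e-05). TDG lies at chr12:103965872-103988874 on the plus strand (NCBI gene 6996) and MBD2 at chr18:54151606-54224669 on the minus strand (NCBI gene 8932).

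**Figure D1:**
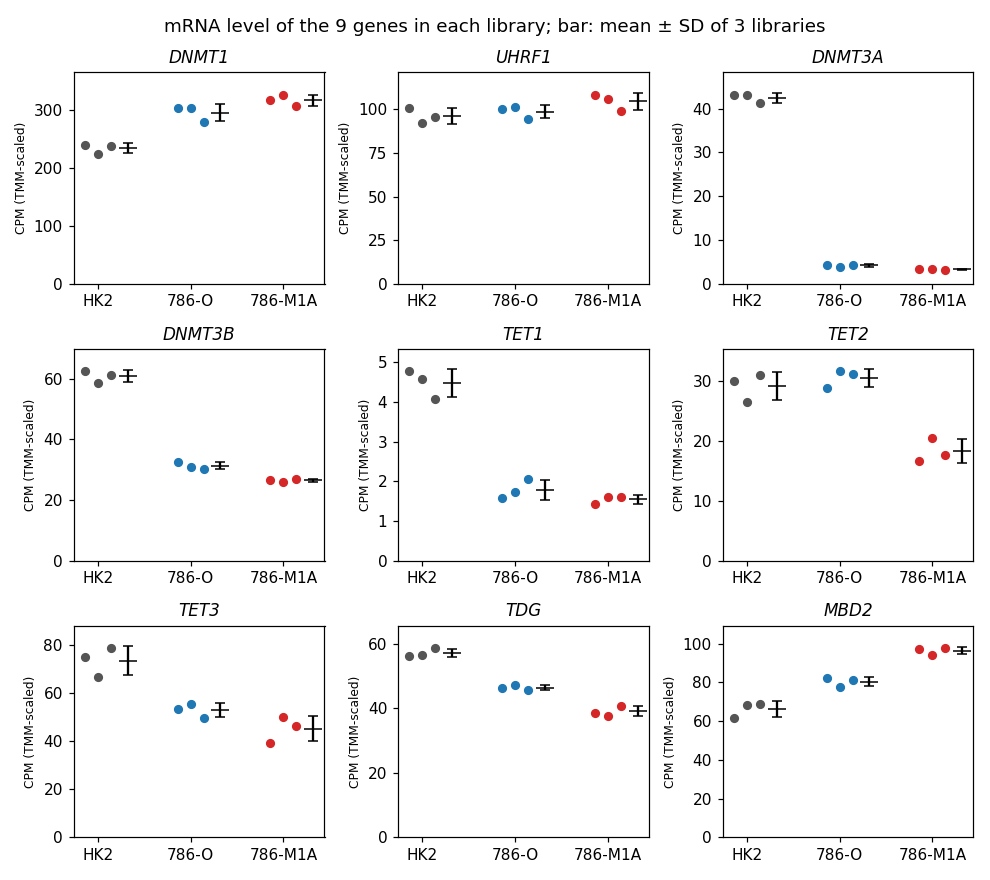
Each panel plots 1 gene in CPM (TMM-scaled, linear axis from 0), with a point per library and a black bar for the mean ± SD of 3 libraries of HK2, 786-O and 786-M1A. DNMT3A drops from a mean of 42.5 CPM to 4.20 and 3.32 CPM, TET2 is low only in 786-M1A (18.3 CPM), and DNMT1 and MBD2 are higher in both cancer lines than in HK2.

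Counted together, 7 of the 9 genes were called in 786-O against HK2 at an edgeR adjusted p under 0.05, where 84.2% of the 12695 genes tested were called, so the share among the 9 was near the background. DNMT1 and MBD2 were higher (41.7% of all genes were) and DNMT3A, DNMT3B, TET1, TET3 and TDG were lower (42.5% of all genes were). At least 2-fold lower were DNMT3A and TET1, against 13.1% of all genes, and none was 2-fold higher (9.18%). The libraries of the lines did not overlap for 7 of the 9, beside 85.5% of all genes. In 786-M1A against HK2 all 9 were called (background 85.0%), with 3 higher (42.0%) and 6 lower (42.9%), of which DNMT3A, DNMT3B and TET1 were at least 2-fold lower (14.9%) and none 2-fold higher (10.5%). In this comparison 8 of the 9 did not overlap (85.0%), UHRF1 being the exception. In 786-M1A against 786-O 7 of 9 were called (background 56.2%), with DNMT1 and MBD2 higher (29.0%) and DNMT3A, DNMT3B, TET2, TET3 and TDG lower (27.1%), none by 2-fold either way (2.03% of all genes higher, 4.52% lower). Here 6 of the 9 did not overlap (61.7%). Median log2 fold changes of the 9 genes were -0.30, -0.67 and -0.22 in the 3 comparisons, beside -0.01, -0.01 and 0.01 for all genes tested. The 3 comparisons share libraries with each other, so their values stand side by side and are not independent.

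**Figure D2:**
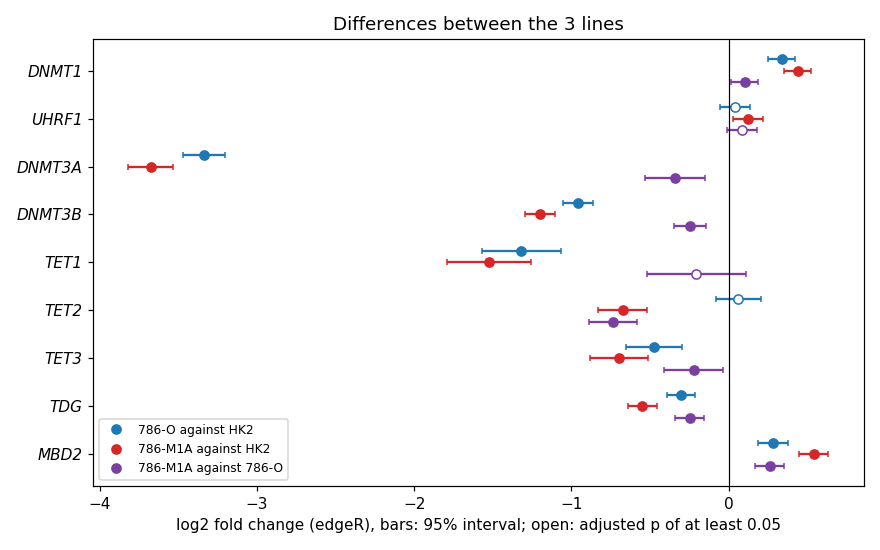
Points give the edgeR log2 fold change of each gene in 3 comparisons (colours), with bars for the 95% interval and open symbols where the adjusted p was at least 0.05. DNMT3A lies at -3.33 and -3.68 against HK2, while the differences between the cancer lines stay between -0.74 (TET2) and 0.26 (MBD2).

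Within the families, the mix of transcripts changed with the line. Counts were divided by the summed exon length of each gene so that genes could be compared. DNMT3A made up 25.6%, 26.9% and 25.1% of the DNMT3A and DNMT3B transcripts in the HK2 libraries, 6.28%, 5.89% and 6.64% in 786-O, and 5.91%, 6.20% and 5.58% in 786-M1A. Neither cancer line overlapped HK2, and they overlapped each other. The difference against HK2 was -19.6 percentage points in 786-O and -19.95 in 786-M1A (exact two-sided permutation test, p = 0.1 for both, the smallest that 3 against 3 libraries allow), and -0.37 points between the cancer lines (exact permutation p = 0.3). DNMT1 accounted for 56.0% ± 0.494 (SD, n = 3) of the summed DNMT1, DNMT3A and DNMT3B level of HK2, 79.8% ± 0.574 of that of 786-O and 83.4% ± 0.634 of that of 786-M1A, with no overlap between any lines (exact permutation p = 0.1 for each pair). The sum of the 3 genes differed less, at 27.1 ± 0.798, 24.0 ± 1.05 and 24.7 ± 0.555 CPM per kilobase.

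Among the TET genes, TET3 held the largest share in every line, at 71.7% ± 0.683 (SD, n = 3) for HK2, 66.7% ± 1.94 for 786-O and 73.3% ± 0.911 for 786-M1A. TET2 took 22.4% ± 0.116, 30.3% ± 1.47 and 23.3% ± 0.928, and TET1 5.91% ± 0.776, 3.03% ± 0.486 and 3.37% ± 0.199. In 786-O the TET2 share was 7.87 percentage points above HK2 and the TET3 share 5.00 points below it, with no overlap (exact permutation p = 0.1 for both, the smallest possible). In 786-M1A both shares overlapped those of HK2 (differences of 0.93 and 1.61 points, exact permutation p = 0.3 and 0.2). The summed TET level fell in steps, from 7.93 ± 0.594 CPM per kilobase for HK2 to 6.13 ± 0.234 for 786-O and 4.77 ± 0.532 for 786-M1A, and the libraries of the 3 lines did not overlap.

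**Figure D3:**
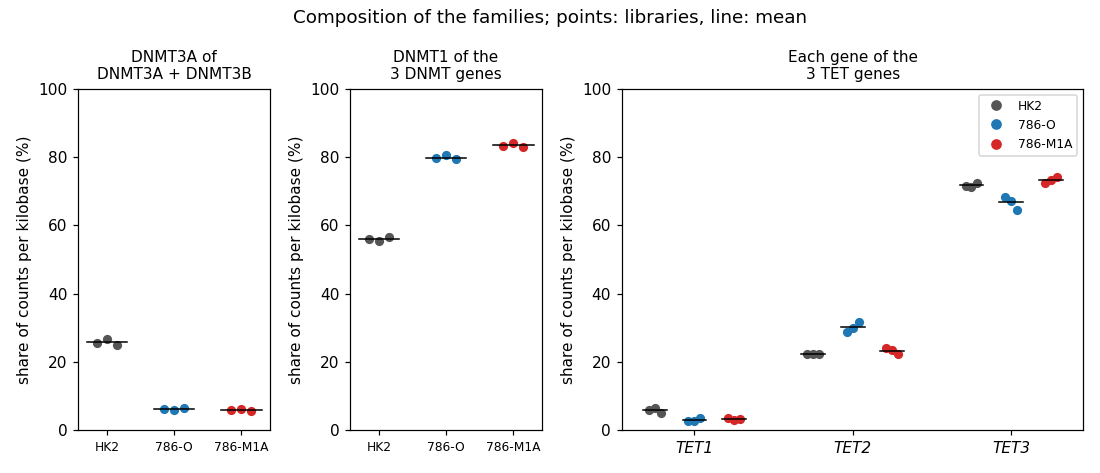
Points give, for each library of HK2, 786-O and 786-M1A, the percent share of length-scaled counts that a gene takes within its family, with a line at the mean. The DNMT3A share drops from 25.9% in HK2 to 6.27% and 5.90%, the DNMT1 share climbs from 56.0% to 79.8% and 83.4%, and the TET2 share is highest in 786-O (30.3%).

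On the length-scaled level, UHRF1 led in HK2 with 18.7 CPM per kilobase, followed by DNMT1 at 15.2, TDG at 11.7, MBD2 at 11.6, DNMT3B at 8.85, TET3 at 5.69, DNMT3A at 3.08, TET2 at 1.78 and TET1 at 0.466. Only TDG and MBD2, neighbours in that order, overlapped between libraries. In 786-O, DNMT1 and UHRF1 were level at 19.2 CPM per kilobase each, then came MBD2 (14.2), TDG (9.50), DNMT3B (4.55), TET3 (4.09), TET2 (1.85), DNMT3A (0.304) and TET1 (0.185). In 786-M1A the order was that of 786-O, DNMT1 and UHRF1 again overlapped at 20.6 and 20.3 CPM per kilobase, and so did DNMT3B and TET3 at 3.85 and 3.50. DNMT3A therefore changed places with TET2 between HK2 and the cancer lines. With the longest transcript as the length, DNMT1 came first in all 3 lines without overlapping UHRF1, and DNMT3B and MBD2 overlapped in HK2.

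Genes on either side were then compared with DNMT3A, a comparison chosen after the values had been seen. The 10 tested neighbours on chromosome 2, 5 on each side, had a median log2 fold change of 0.10 in 786-O against HK2 (range -1.43 to 0.66), where DNMT3A had -3.33. In 786-M1A the median was -0.00 and the range -3.69 to 0.54, the lowest being GAREM2, the outermost of the 5 genes on its side (-1.43 in 786-O). For TET2, the 10 neighbours on chromosome 4 had a median of -0.08 between 786-M1A and 786-O (range -1.06 to 0.91), where TET2 had -0.74. The highest was NPNT, which missed the test (edgeR adjusted p = 0.583). Against HK2 the neighbours of TET2 had a median of -0.73 in 786-M1A, where TET2 itself had -0.67, and of -0.61 in 786-O, where TET2 had 0.06. In 786-M1A 8 of the 10 were called lower against HK2, beside 42.9% of all genes. Of these 10, NPNT and SLC9B2 (log2 fold change -14.3 and -11.5 in 786-M1A against HK2) passed the filter through HK2. DNMT3B showed -0.96 in 786-O against neighbours of -0.40 to 0.71. Copy number of these regions was not analysed here.

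**Figure D4:**
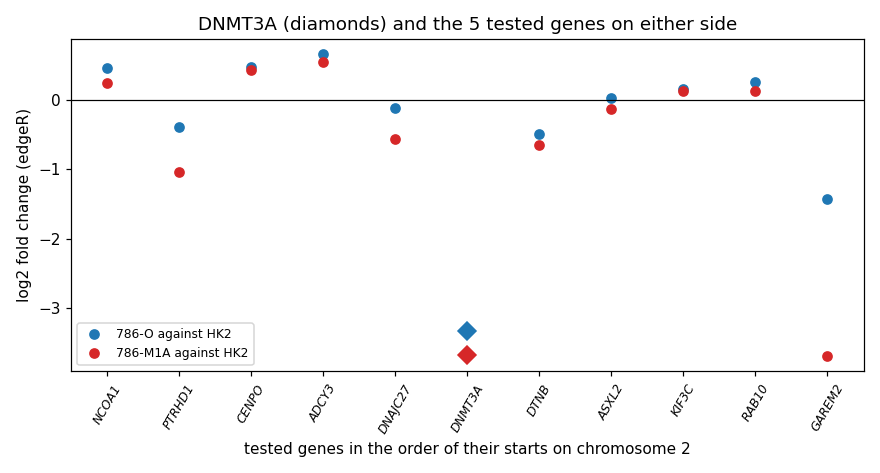
DNMT3A (diamonds) and the 5 tested genes on either side on chromosome 2 are placed in order of their starts, with the edgeR log2 fold change of 786-O (blue) and 786-M1A (red) against HK2 on the vertical axis. The neighbours lie between -1.43 and 0.66 in 786-O, and GAREM2 alone of these neighbours is as low as DNMT3A in 786-M1A (-3.69 against -3.68).

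The genes whose pattern over the 9 libraries was most like that of 8 of the 9 genes were ranked by the root mean square difference of centred log2 CPM among 12655 tested genes with a symbol. For DNMT3A these were PODXL2 (0.0806) and CRISPLD2 (0.0896), with log2 fold changes of -3.34 and -3.47 in 786-O against HK2. TET1 lay nearest to MATN3 (0.0844) and TTC5 (0.0892), and TET3 to ABCA1 (0.0389) and PRRC2C (0.0393). TET2 was most like HELZ (0.0711) and SVIL (0.0713), whose log2 fold changes between the cancer lines were -0.72 and -0.70. DNMT1 was nearest to NCAPH (0.0337) and KDM4C (0.0339), UHRF1 to TAF4 (0.0424) and RABL2A (0.0434), TDG to SMAD3 (0.0369) and GTPBP8 (0.0432), and MBD2 to LSM8 (0.0257) and TPM3 (0.0290). These are descriptions of likeness over 9 libraries of 3 lines. Genes within 2 times the smallest difference numbered 4 for DNMT3A, 23 for TET3, 26 for MBD2 and 59 for TET2. For TDG, TET1, DNMT1 and UHRF1 they numbered 104, 117, 136 and 492, so many genes besides those named lay within that distance.

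Of all genes tested, 84.2% passed in 786-O against HK2 (41.7% higher and 42.5% lower), 85.0% in 786-M1A against HK2 (42.0% and 42.9%) and 56.2% between the cancer lines (29.0% and 27.1%), and the counts of each list below stand beside these shares. Among the partners of the writers, DNMT3L, the catalytically silent cofactor of DNMT3A and DNMT3B, had 0 counts in HK2 and at most 4 in any cancer library, and DPPA3, which holds UHRF1 off chromatin in oocytes, was at 0 throughout. Of the 8 tested partners, 1 was higher and 5 lower in 786-O against HK2, 3 and 4 in 786-M1A against HK2, and 5 and 1 in 786-M1A against 786-O. HELLS, the chromatin remodeller that opens DNA to methylation, fell from 72.3 ± 2.03 CPM (SD, n = 3) in HK2 to 28.7 ± 0.620 and 23.9 ± 2.08 CPM (log2 fold change -1.33 and -1.60, edgeR adjusted p = 7.58e-16 and 4.71e-17). CDCA7, the zinc finger protein that activates HELLS, was lower in 786-O alone of the cancer lines, at 61.1 ± 1.14 CPM against 80.1 ± 3.22 in HK2 and 81.3 ± 2.94 in 786-M1A (log2 fold change of 786-M1A against 786-O 0.41, edgeR adjusted p = 5.46e-08).

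Among the partners of the TET enzymes, 3 of 7 tested were higher and 2 lower in 786-O against HK2, 3 and 3 in 786-M1A against HK2, and 0 and 3 in 786-M1A against 786-O. IDH1, which makes the alpha-ketoglutarate that TET enzymes use, rose from 87.1 ± 3.30 CPM to 169 ± 3.11 and 161 ± 6.77 CPM (log2 fold change 0.96 and 0.89, edgeR adjusted p = 4.26e-15 and 1.51e-14). CXXC5, a CpG-binding protein that interacts with TET2, stood at 119 ± 1.30, 199 ± 5.46 and 159 ± 8.98 CPM and dropped between the cancer lines (log2 fold change -0.32, edgeR adjusted p = 9.54e-07). CXXC4, its relative, had 74 to 88 counts in the HK2 libraries, 7 to 9 in 786-O and 0 in 786-M1A, too few for the test.

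Base excision repair, which completes removal of the mark after TDG, had 3 higher and 7 lower of 12 tested in 786-O against HK2, 4 and 7 in 786-M1A against HK2, and 2 and 3 in 786-M1A against 786-O. UNG and SMUG1, which excise uracil, were lower in both cancer lines against HK2, UNG with log2 fold changes of -1.66 and -1.64 and SMUG1 with -1.14 and -1.08 (edgeR adjusted p of at most 1.12e-12). NEIL3, a glycosylase of oxidised bases, stood at 32.4 ± 1.07 CPM for HK2, 21.5 ± 0.175 for 786-O and 11.3 ± 0.376 for 786-M1A, and its drop between the cancer lines was -0.93 (edgeR adjusted p = 9.37e-12). The NuRD complex that MBD2 recruits had 2 higher and 11 lower of 13 tested in 786-O against HK2 (all genes 41.7% and 42.5%), 2 and 9 in 786-M1A against HK2 (all genes 42.0% and 42.9%), and 5 and 3 in 786-M1A against 786-O. HDAC2, a deacetylase of NuRD, fell from 326 ± 8.90 CPM to 167 ± 1.31 and 179 ± 5.16 CPM (log2 fold change -0.97 and -0.86, edgeR adjusted p = 3.54e-16 and 2.11e-15), and CHD3, its remodeller, was at 246 ± 6.79, 230 ± 9.33 and 181 ± 0.153 CPM. MBD3, which takes the place of MBD2 in a separate form of NuRD, was 1 of the 2 higher genes, by 0.91 and 0.97 (edgeR adjusted p = 1.20e-07 and 6.18e-08).

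Of 9 other genes of the methyl-CpG reader families, of which MBD3, MBD5 and MBD6 do not themselves bind methylated CpG, 4 were higher and 2 lower in 786-O against HK2, 5 and 3 in 786-M1A against HK2, and 2 and 1 in 786-M1A against 786-O. ZBTB33 (Kaiso), which binds methylated CpG through zinc fingers, fell by 0.70 and 0.64 on the log2 scale in 786-O and 786-M1A (edgeR adjusted p = 4.62e-12 and 2.34e-11), and MBD5 was lower in 786-M1A than in its parent line (log2 fold change -0.29, edgeR adjusted p = 1.53e-04). Genes that supply the methyl donor S-adenosylmethionine gave 3 higher and 1 lower of 6 tested in 786-O against HK2, 3 and 2 in 786-M1A against HK2, and 0 and 2 in 786-M1A against 786-O. MAT2B, the regulatory subunit of the synthetase, rose from 60.5 ± 2.29 CPM to 90.6 ± 2.97 and 90.9 ± 2.84 CPM (log2 fold change 0.58 and 0.59, edgeR adjusted p = 4.34e-11 and 3.58e-11). The 18 genes of DNA replication had 5 higher and 11 lower in 786-O against HK2, 8 and 7 in 786-M1A against HK2, and 8 and 5 in 786-M1A against 786-O, among them MCM7, a helicase subunit, with a log2 fold change of 0.59 between the cancer lines, and CCNE1, the cyclin of the entry into S phase, with -1.03 in 786-M1A against HK2 (edgeR adjusted p = 1.14e-11 and 1.03e-11). The medians of these lists in the 3 comparisons ran from -0.48 (base excision repair, 786-M1A against HK2) to 0.23 (reader families, 786-M1A against HK2), beside -0.67 to -0.22 for the 9 genes.

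**Figure D5:**
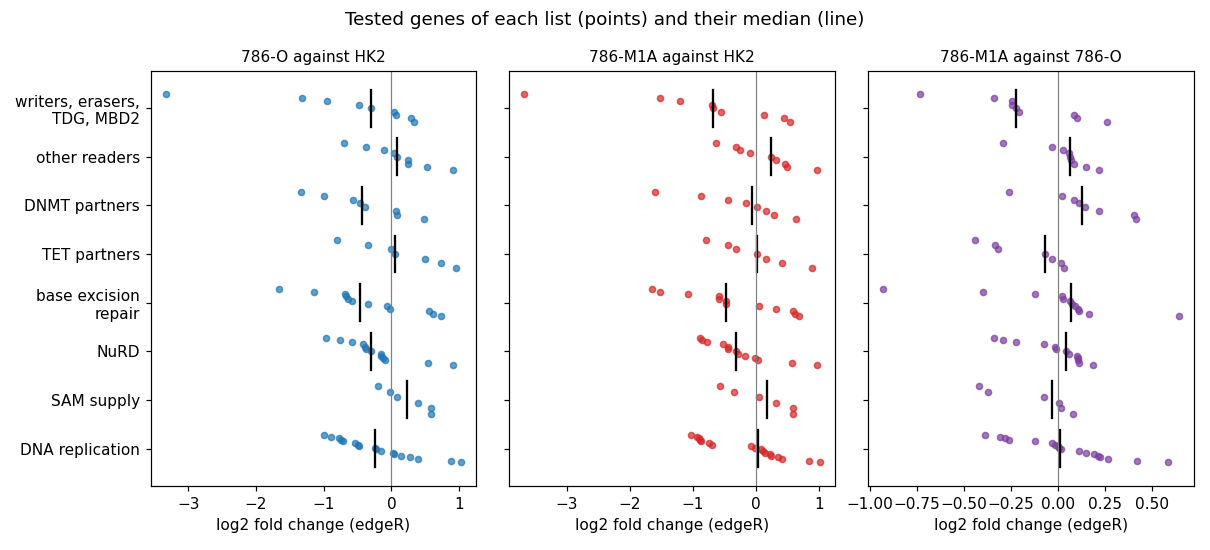
For each list, points are the edgeR log2 fold changes of its tested genes and the black line their median, in 3 panels for 786-O against HK2, 786-M1A against HK2 and 786-M1A against 786-O (the last with a narrower axis). The 9 writers, erasers and readers in the top row have medians of -0.30, -0.67 and -0.22, and DNMT3A is the point farthest left in both comparisons with HK2.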

How the data were processed

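RNA from HK2, 786-O and 786-M1A cells was made into TruSeq Stranded mRNA libraries by the authors, who deposited raw read counts per gene (NCBI gene IDs), made with featureCounts on hg38 per the labels. Whether counting used the strand was not given in the sources used here. Of 28395 gene IDs, 27745 matched a symbol. The 12695 genes that averaged 50 counts or more per library were compared with edgeR 4.0.16 (TMM scaling, robust quasi-likelihood test, 1 fit with a coefficient per line, Benjamini-Hochberg over all genes tested, threshold 0.05) in R 4.3.3. The fit gave a biological coefficient of variation of 3.94%. On simulated counts for 786-O against HK2 (12695 genes) it called 195 of 200 changed genes and 15 unchanged ones. Far fewer genes were changed there than the 84.2% called in the data. Differences as small as those of UHRF1 or DNMT1 between the cancer lines were not simulated. CPM are TMM-scaled, lengths came from GENCODE release 44, and promoters and gene positions from RefSeq (GRCh38.p14). Shares were compared by exact permutation over libraries in Python 3.11.15.

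Alternatives were DESeq2 1.42.0, limma 3.58.1 on log2 counts, RLE and upper-quartile scaling, other filters, only the 2 lines compared, a replicate block, the longest transcript as length, and leaving out each library. From each other list at most 2 genes per comparison were named, those with the largest difference of at least 2-fold without overlap of libraries or, where there were none, the gene with the smallest adjusted p. GRB10, PCNA, MBD3, MBD6, DNMT3L, DPPA3, CXXC4, DAZL, MAGEA1, MAGEA4 and STK31, and the marker genes, were named outside that rule after their values were seen. Some genes that the rule names are not reported here. The members and lists were chosen with earlier results of these data known.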

Additional observations from a re-analysis of the deposited data

Results flagged for a closer look

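For 7 of the 9 genes the difference against HK2 was not the same in the 2 cancer lines, by edgeR's test of 786-M1A against 786-O, which equals the difference between the 2 differences because HK2 is shared. Of all genes tested, 56.2% passed that test. On the log2 scale, 786-M1A minus 786-O was -0.74 for TET2, -0.34 for DNMT3A, -0.25 for TDG, -0.24 for DNMT3B, -0.22 for TET3, 0.26 for MBD2 and 0.10 for DNMT1. TET2 and UHRF1 passed the edgeR test against HK2 in 786-M1A (-0.67 and 0.12) and missed it in 786-O (0.06 and 0.04). For UHRF1 the direct test of 786-M1A against 786-O was also missed (0.08, edgeR adjusted p = 0.126), so no difference between the cancer lines was called. Of these calls, those of TET3 and DNMT1 between the cancer lines and that of UHRF1 against HK2 depend on single libraries. Groups of 3 libraries are too small for a test of outlying libraries, and none was made.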

How the results depend on the processing

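No called difference of the 9 genes changed sign under any alternative, while the uncalled ones of 786-O against HK2 ran from -0.00 to 0.09 for UHRF1 and from -0.01 to 0.11 for TET2. The calls of DNMT3A, DNMT3B, TET1, TET2, TDG and MBD2 kept their side of the threshold in all 3 comparisons under every alternative run. Leaving out 1 library at a time gave 7 called members in each case for 786-O against HK2, 8 to 9 for 786-M1A against HK2 and 5 to 7 for 786-M1A against 786-O. Upper-quartile scaling ended the calls of UHRF1 in 786-M1A against HK2 (0.07, edgeR adjusted p = 0.175) and of DNMT1 in 786-M1A against 786-O (0.09, adjusted p = 0.0681). DNMT1 also lost that call with limma (0.08, adjusted p = 0.0961) and with only the 2 lines compared (0.09, adjusted p = 0.0575). The causes were not tested.

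With the longest transcript as the length, the shares in HK2, 786-O and 786-M1A were 24.3%, 5.81% and 5.46% for DNMT3A, 64.0%, 84.4% and 87.3% for DNMT1, 4.96%, 2.45% and 2.82% for TET1, 30.5%, 39.7% and 31.5% for TET2, and 64.6%, 57.9% and 65.7% for TET3. These moves follow from the lengths used, since the counts are the same.

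When replicate number entered the fit as a block, 7, 9 and 6 of the 9 genes were called in the 3 comparisons, and TET3 in 786-M1A against 786-O was not (-0.23, edgeR adjusted p = 0.0905). Same-numbered libraries correlated at -0.0573 to -0.0286 between HK2 and 786-O, at -0.167 to 0.0377 between HK2 and 786-M1A, and at 0.0739 to 0.215 between 786-O and 786-M1A, where all 6 libraries correlated best with their own number, a hint from the data only. The labels give only a replicate number, so the main fit has no block. Whether same-numbered libraries of 786-O and 786-M1A share a batch was not tested. Depth limits TET1 most, at 51 to 87 counts per cancer library.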

Other observations

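Genes whose silencing depends on DNA methylation in normal tissue were read beside the enzymes. None of 19 germline and cancer-testis genes reached the filter, and their summed level was 1.15 to 1.34 CPM for HK2, 0.495 to 0.787 CPM for 786-O and 0.313 to 0.668 CPM for 786-M1A. In the same order, 12, 13 and 13 of the 19 were at 0 in every library of the line, among them DAZL and MAGEA4 in all 3 lines. STK31, a germline kinase-like gene, had 12 to 19 counts per HK2 library and 0 in both cancer lines. MAGEA1 differed the other way, with 1 to 9 counts per 786-O library and 0 in HK2 and 786-M1A.

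Of 15 imprinted genes, 7 were tested. CDKN1C and KCNQ1OT1 passed the filter through the lines where they are high, so no count over the tested genes is given. CDKN1C, a maternally expressed cell cycle inhibitor, was at 57.1 ± 1.02 CPM (SD, n = 3) in HK2, at 0.332 ± 0.102 CPM in 786-O (10 to 20 counts per library) and at 0 to 2 counts in 786-M1A. PEG10, a paternally expressed retrotransposon-derived gene, fell by 0.65 from HK2 to 786-O and rose by 1.13 from 786-O to 786-M1A on the log2 scale (edgeR adjusted p = 1.16e-09 and 3.14e-12). GRB10, an adaptor of insulin signalling, was at 11.7 ± 1.27 CPM for HK2, 95.7 ± 1.65 for 786-O and 87.0 ± 1.89 for 786-M1A (log2 fold change 3.02 and 2.89 against HK2, edgeR adjusted p = 2.50e-21 and 5.11e-21). KCNQ1OT1, the antisense RNA of the KCNQ1 locus, had 0 counts in HK2 against 89 to 109 for 786-O and 45 to 81 for 786-M1A, at least 31.5-fold and 22.0-fold higher against the mean of 3 counts per HK2 library, and without a stated strand setting its reads cannot be told from those of KCNQ1. Methylation at these genes was not analysed here.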
